A study of Mus musculus with 7 samples.

Results

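The 9 CXC chemokine genes Cxcl1, Cxcl2, Cxcl5, Cxcl9, Cxcl10, Cxcl12, Cxcl14, Cxcl15 and Cxcl16, together with the receptor gene Cxcr4, were followed across the cell types of mouse mammary tumors. All 10 were found by symbol among the 33710 genes of the matrices, and all 10 passed the filter on low counts (at least 30 unique molecular identifiers, UMIs, over all sums). The tumors were 7 control tumors, 1 per mouse, of MMTV-PyMT; HK2 f/f mice on a C57BL/6 background, taken 3 months after a palpable tumor developed. By the study's account the control mice also received tamoxifen, injected on 7 days in a row once a tumor was palpable. No mice without tamoxifen were compared here, so its part in the levels was not tested. MMTV-PyMT places the polyoma middle T oncogene under a promoter active in mammary epithelium, and HK2 f/f is a floxed hexokinase 2 gene, which the labels give as wild type here. Tumors with induced deletion of HK2 were not analysed here, so no comparison below concerns HK2. The mice are numbered 1, 2, 3, 4, 5, 7 and 8 as in the labels, which carry the ending CB for mice 1 to 4 and WT for mice 5, 7 and 8.

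CXC chemokines are small secreted proteins that bind G protein-coupled receptors on leukocytes and guide their movement. Cxcl1, Cxcl2 and Cxcl5 belong to the ELR-positive group, which acts through CXCR2 and attracts neutrophils, and their transcription is driven by NF-kappaB downstream of IL-1, TNF and IL-17. Cxcl9 and Cxcl10 are interferon-induced ligands of CXCR3 on activated T and NK cells. Cxcl12 is the ligand of CXCR4 and ACKR3 and is known as a stromal factor, Cxcl14 is a homeostatic chemokine of epithelia and stroma, Cxcl15 (lungkine) is known from mouse lung epithelium, and Cxcl16 is made as a membrane-anchored ligand of CXCR6 that proteases can release.

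Cells were barcodes with 200 to 6000 genes, 1133 to 4780 per mouse and 15047 in all, with medians of 527 to 694 UMIs per cell. Clustering without these genes gave 16 clusters, and marker lists named 7 classes that were compared. These were tumor cells (5530 cells in 4 clusters), hormone-sensing luminal cells (1704), myoepithelial cells (286), fibroblasts (1029), endothelial cells (143), macrophages (1887 in 2 clusters) and T/NK cells (2210 in 2 clusters). The summed level of each class's own list was higher in that class than in any of the other 6, which follows from the naming and is no independent check of it. Endothelial and myoepithelial cells were not always told apart, since clustering on 9 in place of 20 principal components gave no endothelial class and put 137 of the 143 endothelial cells in the myoepithelial cluster, which scored 4.95 for the myoepithelial and 4.91 for the endothelial list. A UMI sum was used where a mouse had at least 10 cells of a class, which held in 7 mice for 5 classes, in mice 1, 4, 5, 7 and 8 for myoepithelial cells and in mice 4, 5 and 8 for endothelial cells. Levels are UMIs of a gene scaled to the total UMIs of the sum (CPM), and a sum held between 11264 UMIs (T/NK cells of mouse 8) and 1890629 UMIs. Tumor markers summed to 60037 CPM in tumor cells but also to 23756 CPM in myoepithelial cells, and erythroid markers to 3949 CPM in fibroblasts and 3566 CPM in endothelial cells. A further 737 monocyte-like cells, 478 B-like cells, 426 erythroid-like cells and 617 cells of an unnamed cluster were not tested. The erythroid-like name is uncertain, since the tumor list summed to 46174 CPM in those cells and the erythroid list to 40784 CPM. PYMT, Plet1 and Trf were among their leading genes. With 9 principal components 196, 142 and 8 of the 426 cells joined tumor clusters. The monocyte-like cells are named with less certainty, since their cluster scored 4.54 for the monocyte list, with 3 of its markers detected, and 4.47 for the dendritic list, which was named in no cluster. When classes were set per cell without clustering, 29 cells took the monocyte name and 1135 the dendritic name. The monocyte list summed to 3260 CPM in the monocyte-like cells and 3409 CPM in fibroblasts. The dendritic list summed to 27225 CPM in the monocyte-like cells, 32000 CPM in macrophages and 24362 CPM in B-like cells, so it does not single out the monocyte-like cells. The unnamed cluster scored highest for the tumor list and had Krt14, a basal keratin gene, among its 10 leading genes, and 354 of its cells came from mouse 3. The libraries shared 5 of 15042 distinct cell barcodes. Since each Drop-seq molecule is tagged at its 3′ end, a CPM does not grow with transcript length, but capture can still differ between genes.

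Among the recovered cells, the chemokine UMIs were not spread over the classes in proportion to their RNA. Tumor cells held 45.2% of all UMIs of cells and fibroblasts 6.35%, yet fibroblasts held 81.2% of the Cxcl12 UMIs, 75.5% of the Cxcl14 UMIs, 53.6% of the Cxcl9 UMIs and 47.7% of the Cxcl1 UMIs. Macrophages, with 9.03% of all UMIs, held 63.1% of the Cxcl16 UMIs, 45.8% of the Cxcl2 UMIs and 40.95% of the Cxcl10 UMIs. Hormone-sensing cells held 95.2% of the Cxcl15 UMIs. The share of Cxcl12 in fibroblasts lay between 74.75 and 94.1% in every mouse, whereas the share of Cxcl1 in fibroblasts ran from 14.2 to 92.7%, with the number of fibroblasts recovered per mouse running from 43 to 401. Per mouse, the fibroblast share ran from 28.6 to 89.45% for Cxcl14 and from 31.6 to 80% for Cxcl9. The macrophage share ran from 19 to 67.2% for Cxcl2, from 13.55 to 61.7% for Cxcl10 and from 49.15 to 70.0% for Cxcl16. The pooled Cxcl1 share rested on mouse 8, which held 2531 of the 3895 fibroblast UMIs. Without that mouse fibroblasts held 25.1% of the Cxcl1 UMIs and tumor cells 45.8%, against 30.7% in tumor cells with it, and tumor cells held more Cxcl1 UMIs than fibroblasts in 4 of 7 mice (1, 2, 4 and 7). Leaving out mouse 4 lowered the macrophage share of Cxcl9 from 22.7 to 13.2%. The unnamed cluster held 6.4% of the Cxcl1 UMIs and 7.04% of the Cxcl2 UMIs, with up to 38.0 and 32.9% in a single mouse.

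**Figure D1:**
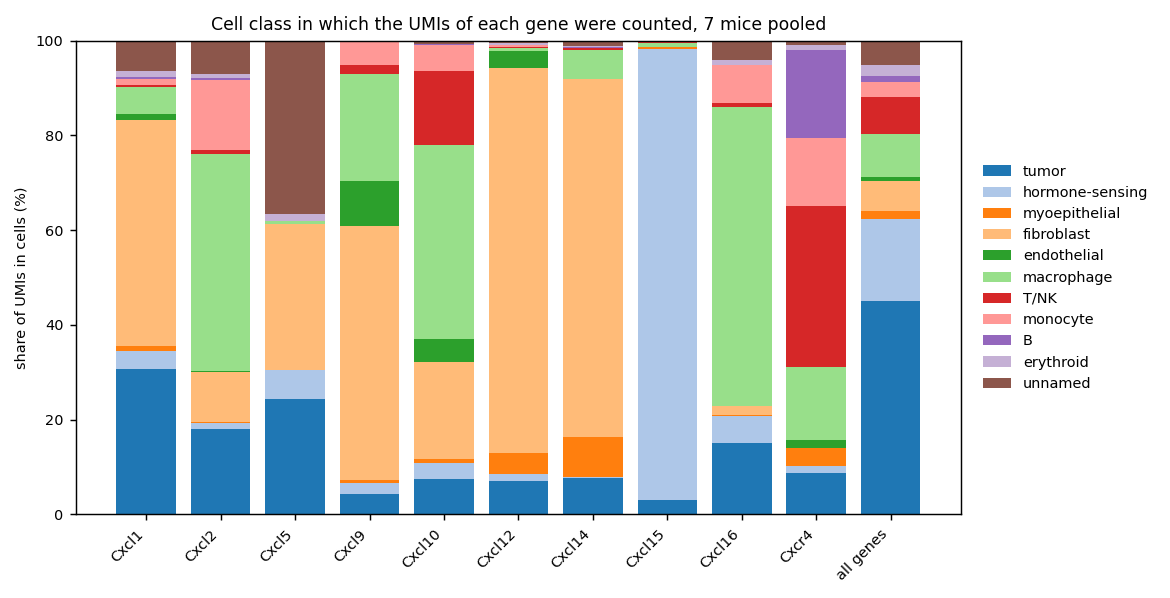
Share (%) of the UMIs of each gene counted in each cell class, with all genes together in the last bar, over the cells of the 7 mice pooled. Cxcl12 and Cxcl14 were counted mostly in fibroblasts, Cxcl15 almost wholly in hormone-sensing cells, and Cxcl16 mostly in macrophages, while macrophages held 45.8% of the Cxcl2 UMIs.

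Cxcl1 and Cxcl2 lie side by side on the plus strand of chromosome 5, at chr5:90891241-90893115 and chr5:90903871-90905938 (GRCm38, GENCODE vM21), and their promoters carry the same NF-kappaB element. The RefSeq promoter windows (GRCm38.p6, 250 bases before to 50 after the start, plus strand) are chr5:90890995-90891294 and chr5:90903649-90903948. They are printed to show that shared element, since Cxcl1 had its highest level in fibroblasts and Cxcl2 in macrophages, with matches to the NF-kappaB consensus in capitals.
Cxcl1: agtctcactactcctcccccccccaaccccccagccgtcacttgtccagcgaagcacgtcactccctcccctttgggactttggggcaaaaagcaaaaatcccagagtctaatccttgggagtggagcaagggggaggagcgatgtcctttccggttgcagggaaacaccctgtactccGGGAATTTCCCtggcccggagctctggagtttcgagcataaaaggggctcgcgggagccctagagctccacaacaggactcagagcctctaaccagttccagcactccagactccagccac
Cxcl2: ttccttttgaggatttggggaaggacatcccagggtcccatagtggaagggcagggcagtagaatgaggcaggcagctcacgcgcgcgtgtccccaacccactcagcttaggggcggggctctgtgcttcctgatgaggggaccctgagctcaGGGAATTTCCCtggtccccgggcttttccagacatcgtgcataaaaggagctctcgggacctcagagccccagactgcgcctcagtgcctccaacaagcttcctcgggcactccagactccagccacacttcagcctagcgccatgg
The capitals of each are the 10-letter consensus read on both strands with an offset of 1 base, starting at position -71 in Cxcl1 and -97 in Cxcl2 relative to the start. A match was present in 1480 of 32851 promoter windows of the same length (4.51%). Whether this element bears on the levels of Cxcl1 or Cxcl2 was not tested.

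Cxcl1 was at its highest in fibroblasts. Its level there was 4797, 1908, 3970, 1465, 2248, 1120 and 7228 CPM in mice 1, 2, 3, 4, 5, 7 and 8, against 258, 500, 223, 519, 125, 385 and 164 CPM in tumor cells of the same mice. Every fibroblast value lay above every tumor value. The difference was 3.52 ± 0.26 on the log2 scale (SE), or 11.5-fold, with an adjusted p of 4.62e-21 (edgeR quasi-likelihood test with mouse as block, Benjamini-Hochberg adjustment over 14485 genes, used for all tests below).

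Endothelial cells came next, at 559, 721 and 1852 CPM in mice 4, 5 and 8. They were 1.94 ± 0.39 (log2) below fibroblasts (adjusted p = 1.06e-04), did not pass against macrophages (1.13 ± 0.39, adjusted p = 0.0550) and were 1.58 ± 0.39 above tumor cells (adjusted p = 0.00268), and without mouse 8 the difference from tumor cells was 1.14 with an adjusted p of 0.182. That call was also lost with the scaling factors between sums (TMM) set on all genes (0.76, adjusted p = 0.212), in the CB libraries alone (0.71, adjusted p = 0.800) and with classes set per cell (1.16, adjusted p = 0.304). Macrophages (373 ± 127 CPM, SD, n = 7), tumor cells (311 ± 159, n = 7) and myoepithelial cells (250.3 ± 163, n = 5) followed, and neighbours in that order did not differ by the test, with log2 differences of 0.45 ± 0.26 and 0.24 ± 0.37. Hormone-sensing cells were lower, at 93.9 ± 35.8 CPM, and T/NK cells lowest, at 26.1 ± 30.1 CPM, and both were below tumor cells in 7 of 7 mice. The T/NK mean was 15.7 ± 13.1 CPM (n = 6) without mouse 8, whose 88.8 CPM was 1 UMI. The unnamed cluster, whose best list was the tumor list, was not in the fit and had 681.5 ± 551 CPM (n = 7). Its range of 176 to 1888 CPM per mouse overlapped that of tumor cells. Barcodes below the limit of 200 genes are a mixture of shallow cells and RNA outside cells. They had 296 ± 311 CPM of Cxcl1, with 78.9 to 971 CPM per mouse. Compared within each mouse, fibroblasts exceeded that level in 7 of 7 mice and hormone-sensing and T/NK cells in 0 of 7. The part of free RNA in the lower levels was not tested.

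Cxcl2 was at its highest in myeloid cells instead. Macrophages held 3357, 8541, 4158, 3014, 3384, 3390 and 2801 CPM in the 7 mice in order, and tumor cells 80.2, 1268, 313, 184, 155, 209.5 and 279 CPM. The groups did not overlap, and the difference was 4.18 ± 0.33 (log2), or 18.1-fold (adjusted p = 1.43e-19). Mouse 2 was the highest in both classes. The monocyte-like cells, which were not in the fit, had 2183 to 10306 CPM with a median of 3100 CPM, a range that overlapped that of macrophages. Neutrophil markers in those cells summed to 1658 CPM, with 13.2 to 6447 CPM per mouse, and their part in that level was not tested. The unnamed cluster had 674 ± 881 CPM of Cxcl2 (n = 7). Its range of 29.1 to 2524 CPM per mouse overlapped that of tumor cells.

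In fibroblasts Cxcl2 was 412, 525, 492.6, 74.6, 129.5, 24.0 and 3041 CPM, so that mouse 8 alone stood above 1000 CPM and held 1065 of the 1178 fibroblast UMIs. The fibroblasts were 3.26 ± 0.36 (log2) below macrophages (adjusted p = 1.04e-12) in 6 of 7 mice. Against tumor cells the log2 difference was 0.92 ± 0.37 (adjusted p = 0.0456) with fibroblasts higher in 3 of 7 mice, and without mouse 8 it was -0.04 ± 0.34 (adjusted p = 0.952), and the call was lost in 15 other alternatives of 25, among them without the mouse block (adjusted p = 0.0649) and with DESeq2 (0.237). Hormone-sensing (55.3 ± 33.4 CPM) and T/NK cells (84.2 ± 87.1 CPM) were lower than tumor cells in 7 of 7 mice each, by 2.45 ± 0.40 and 1.88 ± 0.43 on the log2 scale (adjusted p = 4.85e-07 and 1.91e-04), and without mouse 2 the T/NK value became -0.996 with an adjusted p of 0.0543. The T/NK mean was 53.8 ± 36.9 CPM (n = 6) without mouse 8, whose 266 CPM was 3 UMIs. Barcodes under 200 genes had 1223 ± 895 CPM of Cxcl2, above the tumor cells in 6 of 7 mice, and the part of such RNA in the lower classes was not tested.

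Cxcl5 (chr5:90759360-90761624, plus strand) was rare, with 276 UMIs in all cells. Fibroblasts had 11.4, 0, 0, 63.9, 23.5, 0 and 199.9 CPM, and tumor cells 2.38, 4.35, 41.4, 6.20, 3.79, 11.1 and 32.8 CPM. The ranges overlapped, and fibroblasts were higher in 4 of 7 mice. The fitted difference of 1.89 ± 0.49 (log2, adjusted p = 0.00143) depended on mouse 8, which held 70 of the 85 fibroblast UMIs. Without that mouse it was 1.54 with an adjusted p of 0.0715. No Cxcl5 UMI was counted in myoepithelial, endothelial or T/NK cells, which allows up to 10.4, 31.1 and 2.40 CPM over each group (3 counts, counting error only). In T/NK cells this puts Cxcl5 at least 3.88-fold lower than the 9.32 CPM of all tumor sums together, and that difference passed the test (adjusted p = 0.00561), but not with DESeq2 (adjusted p = 0.0916) or with at least 500 genes per barcode (adjusted p = 0.257). Macrophages had 2 UMIs, both in mouse 8, and were lower than tumor cells in 7 of 7 mice (log2 difference -2.80, adjusted p = 0.00977). That call was lost in 5 of 24 alternatives, namely without mouse 3 (adjusted p = 0.0639), without the mouse block (0.166), with DESeq2 (0.162), in the WT libraries alone (0.163) and with at least 500 genes per barcode (0.0868). The unnamed cluster held 101 Cxcl5 UMIs, 36.6% of the total, at 59.0 ± 87.0 CPM (n = 7), but 12.2% of the total without mouse 3 and a mean of 35.2 CPM without mouse 2.

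**Figure D2:**
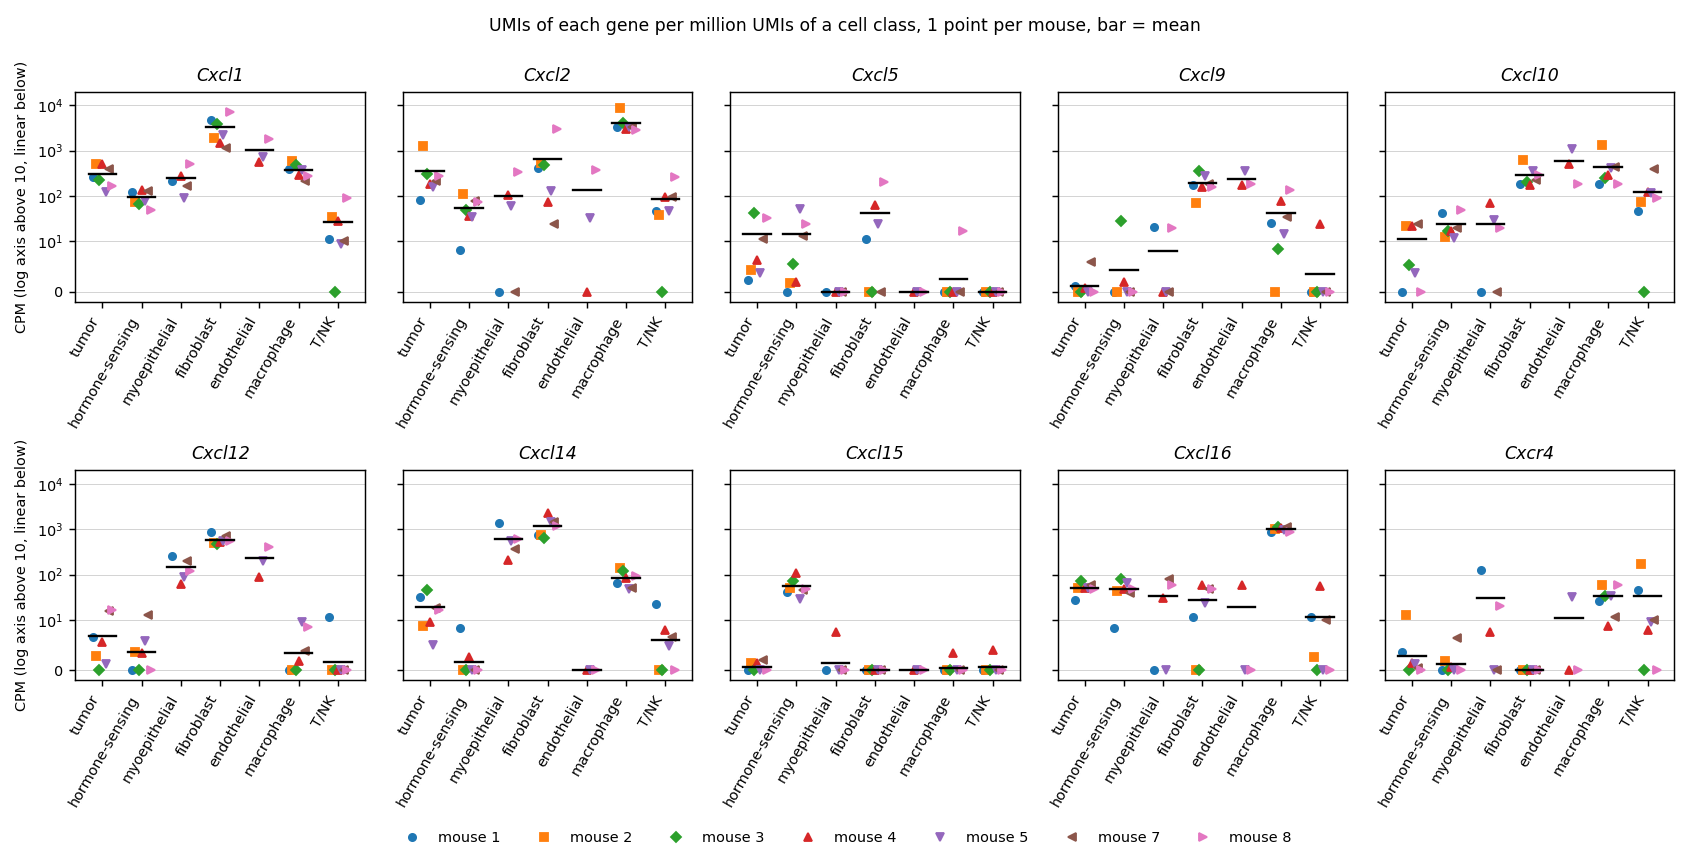
Level of each gene (CPM, log axis above 10 and linear below) in each cell class, 1 point per mouse and a bar at the mean over mice. The fibroblast points of Cxcl1 and the macrophage points of Cxcl2 and Cxcl16 lie above all tumor points, and mouse 8 stands apart for Cxcl2 in fibroblasts, at 3041 CPM.

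The balance of Cxcl1 to Cxcl2 ran in opposite directions in fibroblasts and macrophages. In fibroblasts the ratio of Cxcl1 UMIs to Cxcl2 UMIs was between 2.38 and 46.6, with a median of 11.6 over 7 mice. In macrophages it was between 0.0631 and 0.119, with a median of 0.0976, and in monocyte-like cells between 0.00980 and 0.112. Tumor cells ran from 0.394 to 3.22, above the macrophage range and overlapping the lower end of the fibroblast range, with more Cxcl1 than Cxcl2 in 3 of 7 mice. The fibroblast and macrophage ranges did not overlap. These ratios were computed after the levels had been seen and carry no test.

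**Figure D3:**
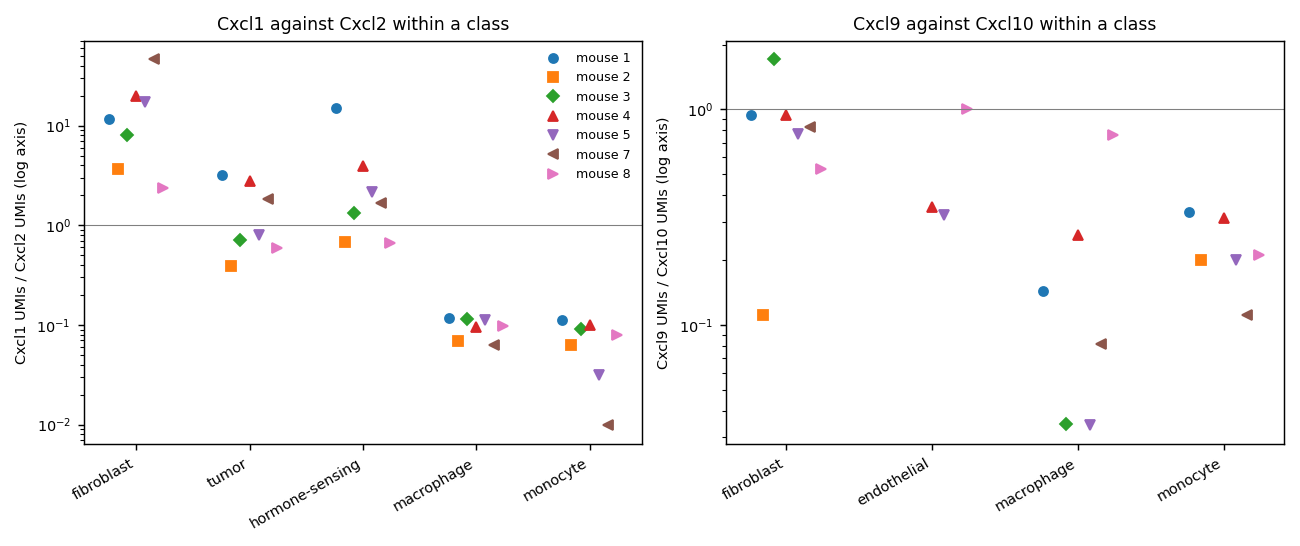
Ratio of the UMIs of 2 chemokines within a class (log axis), 1 point per mouse, with a line at equal counts; ratios of 0 are not drawn. Fibroblasts lie above 1 and macrophages below 1 for Cxcl1 over Cxcl2 in all 7 mice, while Cxcl9 over Cxcl10 spreads widely.

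Cxcl9 and Cxcl10 lie close together on the minus strand of chromosome 5, at chr5:92321347-92328079 and chr5:92346638-92348889. Their promoter windows (minus strand, chr5:92328030-92328329 and chr5:92348840-92349139) are printed because both genes were counted in fibroblasts, endothelial cells and macrophages but at different relative levels. NF-kappaB consensus matches are again in capitals.
Cxcl9: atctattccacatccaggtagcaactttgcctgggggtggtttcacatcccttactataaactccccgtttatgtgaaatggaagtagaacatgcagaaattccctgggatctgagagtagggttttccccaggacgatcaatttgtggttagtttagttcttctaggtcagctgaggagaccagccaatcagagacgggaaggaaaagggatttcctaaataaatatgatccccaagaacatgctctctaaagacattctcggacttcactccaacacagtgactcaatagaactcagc
Cxcl10: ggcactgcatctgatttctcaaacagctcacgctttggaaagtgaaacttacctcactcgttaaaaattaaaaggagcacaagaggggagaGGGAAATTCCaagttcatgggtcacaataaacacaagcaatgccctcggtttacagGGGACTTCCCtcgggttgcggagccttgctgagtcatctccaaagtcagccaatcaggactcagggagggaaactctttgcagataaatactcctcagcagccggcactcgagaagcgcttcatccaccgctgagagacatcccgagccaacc
Cxcl10 had consensus matches at -159 and -103 and 1 match to an interferon-response pattern (GAAA, any 2 bases, GAAA) at -213, reading GAAAGTGAAA, a pattern that 1131 of 32851 windows held on either strand (3.44%). No match to either pattern, nor to the letters TTCNNNGAA of a STAT element, was in the Cxcl9 window. Only exact matches were sought, so elements that differ from these letters were not counted. Whether any element bears on the levels of Cxcl9 or Cxcl10 was not tested. Exons of Art3 overlap Cxcl10 on the other strand, and the sources used here do not state whether counting used strand. Art3 itself had 48 UMIs in all cells, against 1331 of Cxcl10.

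Cxcl9 was highest in the stroma. Fibroblasts had 172, 70.0, 348, 159.8, 271, 183 and 157 CPM and endothelial cells 176, 360.3 and 188 CPM in mice 4, 5 and 8, and these classes did not differ by the test (log2 difference -0.05 ± 0.46, endothelial minus fibroblast), although the endothelial CPM was the higher in 3 of 3 mice. Tumor cells had at most 5.82 CPM. Fibroblasts exceeded tumor cells by 6.52 ± 0.42 (log2, adjusted p = 3.79e-25) and endothelial cells by 6.47 ± 0.74 (adjusted p = 2.05e-11), from 14 tumor UMIs in all, most of them in mouse 7, without which the values became 7.77 and 7.72, and without mouse 5 the endothelial value became 5.88. Macrophages, at 25.7, 0, 8.45, 76.9, 14.4, 35.03 and 137 CPM, were 1.97 ± 0.34 (log2) below fibroblasts in 7 of 7 mice (adjusted p = 1.18e-06) and 4.55 ± 0.49 above tumor cells (adjusted p = 2.06e-13), or 5.88 without mouse 7. Hormone-sensing, myoepithelial and T/NK cells had means between 3.41 and 8.14 CPM, of which that of hormone-sensing cells was 0.334 CPM without mouse 3 and that of T/NK cells 0 without mouse 4, and did not differ from tumor cells by the test.

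Cxcl10 was shared more evenly. Endothelial cells had 500, 1114 and 188 CPM in mice 4, 5 and 8, macrophages 180.1, 1342, 245, 294, 422, 428 and 179 CPM, and fibroblasts 183, 630.3, 203, 170.5, 353, 221 and 297 CPM. Neighbours in that order did not differ by the test, with log2 differences of 0.43 ± 0.44 and 0.40 ± 0.29. All lay far above tumor cells, which had 0 to 24.3 CPM. The log2 differences were 5.67 ± 0.54 for endothelial cells (adjusted p = 5.55e-15), 5.24 ± 0.33 for macrophages (adjusted p = 1.33e-25) and 4.83 ± 0.36 for fibroblasts (adjusted p = 1.50e-21).

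T/NK cells, the class that carries the Cxcl10 receptor, also held Cxcl10 UMIs, at 45.8, 72.9, 0, 119.5, 119, 398.5 and 88.8 CPM. This was 1.52 ± 0.34 (log2) below fibroblasts (adjusted p = 1.58e-04) and 3.31 ± 0.37 above tumor cells (adjusted p = 7.63e-13) in 6 of 7 mice. By the exact two-sided sign-flip test over the 7 mice the difference from tumor cells did not pass on log2(CPM + 1) (p = 0.0625) and passed on log2(CPM + 10) (p = 0.0312). The level was above that of barcodes under 200 genes (74.3 ± 43.6 CPM) in 4 of 7 mice and not in the other 3. Within tumor cells, 81 of the 99 Cxcl10 UMIs and 12 of the 14 Cxcl9 UMIs came from cluster 8, whose leading genes were the interferon-stimulated Ifit3, Rsad2, Ifit1 and Isg15. The ratio of Cxcl9 to Cxcl10 UMIs was 0.111 to 1.71 in fibroblasts (median 0.826) and 0 to 0.762 in macrophages (median 0.0818), and these ranges overlapped.

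Cxcl12 (chr6:117168535-117181367, plus strand) marked fibroblasts. Its level was 847, 508, 464, 527.5, 541.5, 702 and 557 CPM in fibroblasts, a spread of less than 2-fold over the 7 mice, and 0 to 16.4 CPM in tumor cells. The difference was 6.76 ± 0.25 (log2), or 108-fold (adjusted p = 5.77e-41). Endothelial cells, at 88.2, 196.5 and 408 CPM, were 1.51 ± 0.38 below fibroblasts (adjusted p = 0.00365). Myoepithelial cells, at 250.9, 61.1, 90.2, 203 and 119 CPM in mice 1, 4, 5, 7 and 8, did not differ from endothelial cells by the test (log2 difference 0.95 ± 0.48) and exceeded tumor cells by 4.29 ± 0.44 in 5 of 5 mice (adjusted p = 1.01e-13, or 0.0650 with classes set per cell).

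The fibroblast marker list summed to 2907 CPM in myoepithelial cells and 52023 CPM in fibroblasts, while Cxcl12 over all sums was 118 and 599 CPM. The macrophage list summed to 7154 CPM in myoepithelial cells (2433 to 9538 per mouse) and 60587 CPM in macrophages. The part of these other cell types in the myoepithelial levels was not tested. Macrophages had 5 Cxcl12 UMIs and hormone-sensing cells 10, and neither differed from tumor cells by the test. T/NK cells had 1 UMI in 1249901 and were called lower than tumor cells (adjusted p = 0.0213), a call that was lost in 10 of 25 alternatives, among them without mouse 2, 4 or 7 and with DESeq2 (adjusted p = 0.167).

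Cxcl14 (chr13:56288643-56296551, minus strand) had a stepwise order, in which each of the first 3 classes differed from the next. Fibroblasts had 733, 753, 638, 2280, 1436, 1418 and 1162 CPM, myoepithelial cells 1380, 214, 541, 365 and 614 CPM (mice 1, 4, 5, 7 and 8), macrophages 64.3, 140.0, 118, 83.9, 47.9, 50.6 and 94.0 CPM, and tumor cells 5.05 to 46.7 CPM. The successive log2 differences were 1.36 ± 0.29 (adjusted p = 2.97e-04), 2.64 ± 0.35 (adjusted p = 1.60e-09) and 2.41 ± 0.34 (adjusted p = 6.85e-09). The first held in 4 of 5 mice and the others in every mouse compared, mouse 1 being the one in which myoepithelial cells were higher. Fibroblasts exceeded tumor cells by 6.41 ± 0.29 (log2), or 84.8-fold (adjusted p = 1.65e-34). Hormone-sensing cells were lower than tumor cells, with 5 UMIs in 2732526 (log2 difference -3.04 ± 0.65, adjusted p = 1.41e-04, or 0.0857 with at least 500 genes per barcode), and endothelial cells had 0 UMIs, which allows up to 31.1 CPM. Macrophages were above the barcodes under 200 genes (66.9 ± 47.9 CPM) in 4 of 7 mice.

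Cxcl15 (chr5:90794534-90803067, plus strand), which lies between Cxcl5 and Cxcl1, was counted almost wholly in hormone-sensing luminal cells. Their level was 41.8, 49.3, 72.5, 105.5, 29.3, 44.9 and 47.9 CPM in the 7 mice. The highest level of any other sum was 7.64 CPM, which is 1 UMI in the myoepithelial cells of mouse 4. Tumor cells had 7 UMIs in 7187189, and the difference was 5.40 ± 0.40 (log2), or 42.2-fold (adjusted p = 3.10e-20), in 7 of 7 mice. Cxcl15 passed the filter on low counts only through the 218 UMIs of hormone-sensing cells, so the adjusted p is a description. Fibroblasts, with 0 UMIs, were limited to 2.97 CPM. The barcodes under 200 genes had 3.16 ± 4.82 CPM.

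Cxcl16 (chr11:70453983-70459984, minus strand) had the smallest SD relative to its mean among the members in their leading classes (997 ± 93.0 CPM, n = 7). In macrophages it was 887, 1015, 1107, 1051, 939, 1094 and 888 CPM, and in tumor cells 27.9 to 71.9 CPM. The difference was 4.58 ± 0.21 (log2), or 23.9-fold (adjusted p = 7.80e-35). Monocyte-like cells had 375 ± 117 CPM (n = 7). Below macrophages, neighbours in the order tumor, hormone-sensing, myoepithelial, fibroblast, endothelial and T/NK cells did not differ by the test, and all means there were between 11.4 and 51.3 CPM, under the 129 ± 59.2 CPM of barcodes under 200 genes. T/NK cells were lower than tumor cells by 1.74 ± 0.38 (log2, adjusted p = 8.99e-05) in 6 of 7 mice, or by 3.18 without mouse 4, where the T/NK mean was 4.02 CPM. Exons of Zmynd15 overlap Cxcl16 on the other strand. Zmynd15 was itself a leading gene of the main macrophage cluster, with 678 of its 780 UMIs in macrophages (472 CPM), so that in the absence of strand information reads of the overlap cannot be told apart.

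Cxcr4 (chr1:128588199-128592293, minus strand), the receptor for Cxcl12, had 215 UMIs in all cells and varied widely between mice. T/NK cells had 45.8, 167.5, 0, 7.97, 9.48, 9.96 and 0 CPM, and mouse 2 supplied 62 of the 73 UMIs. Without that mouse the mean was 12.2 ± 17.1 CPM (n = 6), against 34.4 ± 60.7 with it. Macrophages had 25.7, 58.3, 33.8, 8.74, 33.6, 11.7 and 59.8 CPM. T/NK cells and macrophages exceeded tumor cells (0 to 13.1 CPM) by 3.58 ± 0.45 and 3.80 ± 0.48 on the log2 scale (adjusted p = 2.02e-10 and 1.46e-10), in 5 and 7 of 7 mice, and none of the neighbours in the order of Cxcr4 levels differed by the test. The T/NK difference did not pass the exact two-sided sign-flip test over the 7 mice (p = 0.0625, where 0.0156 is the smallest possible). Fibroblasts, the cells with the most Cxcl12, had 0 Cxcr4 UMIs in 1009749, which allows up to 2.97 CPM. Myoepithelial cells were also called higher than tumor cells (3.98 ± 0.81, adjusted p = 1.19e-04), in 3 of 5 mice, but 6 of their 8 UMIs came from mouse 1, without which the adjusted p was 0.298. B-like cells had 30.02, 326, 0 and 43.0 CPM in mice 1, 2, 4 and 5, again highest in mouse 2, and monocyte-like cells had 72.5 ± 82.8 CPM (n = 7), with 237 CPM from 10 UMIs in mouse 2 and a mean of 45.1 CPM without it. Barcodes under 200 genes had 27.7 ± 37.0 CPM, with 5.51 to 109.8 CPM per mouse.

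Against tumor cells, 7 of the 10 genes were called higher in fibroblasts and 0 lower, where 31.5% of all tested genes were called, 17.9% higher and 13.6% lower. Macrophages had 6 higher (Cxcl2, Cxcl9, Cxcl10, Cxcl14, Cxcl16 and Cxcr4) and 1 lower (Cxcl5), where 36.4% of all genes were called, 15.9% higher and 20.5% lower. Endothelial cells had 4 higher (Cxcl1, Cxcl9, Cxcl10 and Cxcl12) and 0 lower, where 7.03% were called (5.30% higher and 1.73% lower), and myoepithelial cells 3 higher (Cxcl12, Cxcl14 and Cxcr4) and 0 lower, where 11.7% were called (8.85% higher and 2.83% lower). Hormone-sensing cells had 1 higher (Cxcl15) and 3 lower (Cxcl1, Cxcl2 and Cxcl14), where 22.3% were called (11.2% higher and 11.1% lower). T/NK cells had 2 higher (Cxcl10 and Cxcr4) and 5 lower (Cxcl1, Cxcl2, Cxcl5, Cxcl12 and Cxcl16), where 40.6% were called (16.3% higher and 24.3% lower). All of these comparisons share the tumor sums. Cxcl15 passed the filter on low counts only through hormone-sensing cells, so its call there is a description.

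The tests between neighbouring classes above had backgrounds of their own. Between fibroblasts and other classes, the share of all genes called was 6.77% for endothelial cells, 10.7% for myoepithelial cells, 28.0% for macrophages, 29.8% for hormone-sensing cells and 34.9% for T/NK cells. Between endothelial and other classes it was 4.33% for myoepithelial cells, 7.90% for hormone-sensing cells, 9.43% for macrophages and 9.82% for T/NK cells. Between macrophages and other classes it was 21.2% for myoepithelial cells, 23.9% for T/NK cells and 33.7% for hormone-sensing cells. The other pairs were at 14.7% (myoepithelial and hormone-sensing), 24.8% (T/NK and myoepithelial) and 38.2% (T/NK and hormone-sensing).

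The median log2 difference of the 10 genes was 2.71 in fibroblasts, 3.10 in macrophages, 1.49 in myoepithelial cells, -0.43 in hormone-sensing cells and -1.61 in T/NK cells, while that of all genes was between -0.20 and 0.01 in those classes. In endothelial cells it was 0.12, or 2.15 with the 3 genes at 0 UMIs set to their upper limit, against -0.37 over all genes. Without mouse 8 the fibroblast count was 5 and the endothelial count 3, the genes lost being Cxcl2 and Cxcl5 in fibroblasts and Cxcl1 in endothelial cells. Without mouse 2 the T/NK count was 2 higher and 3 lower, with Cxcl2 and Cxcl12 lost. Without mouse 1 the myoepithelial count was 2, with Cxcr4 lost, and without mouse 3 the macrophage count was 6 higher and 0 lower, with Cxcl5 lost.

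**Figure D4:**
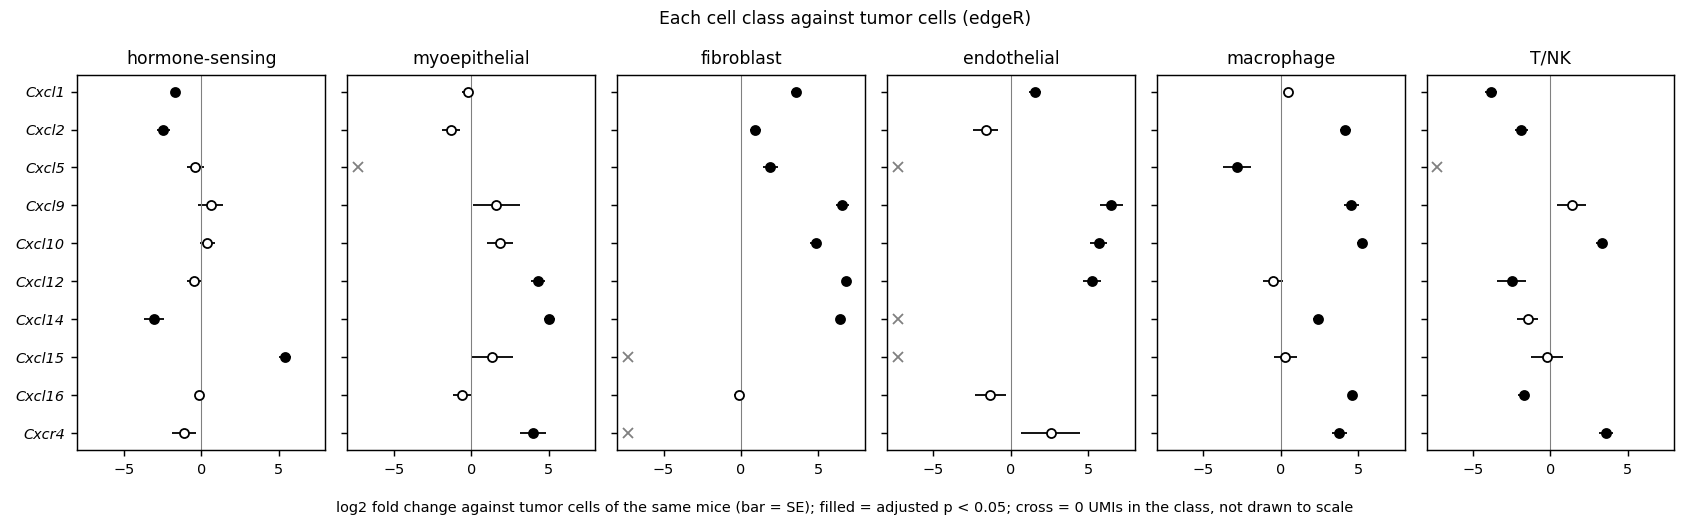
Log2 difference of each gene between a cell class and the tumor cells of the same mice (point and SE), filled where the adjusted p was under 0.05; crosses mark genes with 0 UMIs in the class and have no position on the axis. In fibroblasts the filled points are all to the right of 0, and in T/NK cells most are to the left.

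Within classes the chemokines were not uniform. Of the macrophage clusters, cluster 2, led by Ms4a7, C1qc and C1qb, had 1046 ± 87.4 CPM of Cxcl16 (n = 7), while cluster 15, led by Ccl8, Cd209f, Fcna and Lyve1, had 280 ± 157 CPM (n = 4), and the ranges of 911 to 1136 and 76.5 to 439 CPM did not overlap. Cxcl2 was 3844 ± 2145 and 5470 ± 1221 CPM in these clusters, with overlapping ranges. Of the tumor clusters, cluster 0, led by Saa1, Spp1 and Ltf, had 452 ± 199.5 CPM of Cxcl1 and 29.1 ± 33.1 CPM of Cxcl5, and cluster 1, led by Scgb2b27, Thrsp, Emid1 and the milk protein gene Lalba, had 164 ± 95.8 and 3.73 ± 8.77 CPM (n = 7 each). The Cxcl5 values rest on 51 UMIs in cluster 0 (5.59 to 80.7 CPM per mouse) and 5 UMIs in cluster 1 (0 to 23.5 CPM). Cxcl10 was 71.8 ± 83.1 CPM in the interferon cluster 8 and at most 11.3 CPM in any mouse in the other tumor clusters. The clusters were drawn from the same cells, so these values are a description.

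**Figure D5:**
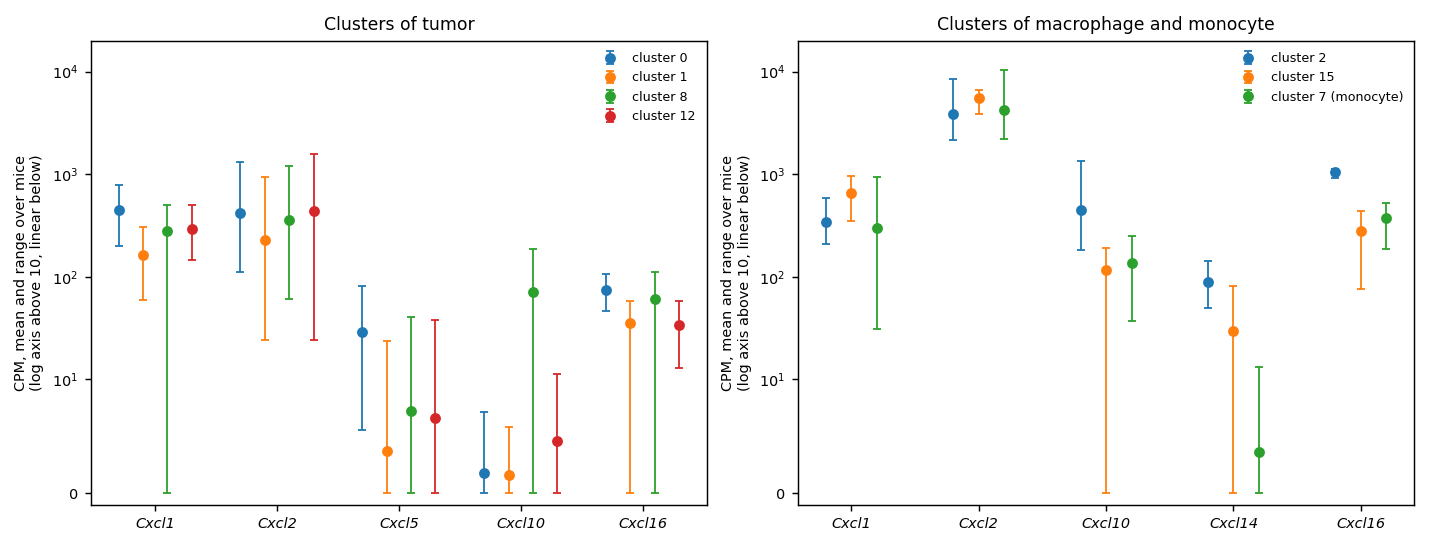
Level (CPM, log axis above 10 and linear below) of selected chemokines in single clusters, as the mean over mice with lines from the lowest to the highest mouse. Cxcl16 is higher in macrophage cluster 2 than in cluster 15 or the monocyte-like cluster 7, and Cxcl10 in tumor cells is highest in cluster 8.

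A wider list of 30 genes of the same system, of which 25 were tested, was laid beside the members. In fibroblasts 15 were higher and 2 lower than in tumor cells, in macrophages 15 and 2, in T/NK cells 10 and 5, in endothelial cells 7 and 0, in hormone-sensing cells 6 and 1 and in myoepithelial cells 3 and 1. Over all tested genes the shares called higher and lower were 17.9 and 13.6% in fibroblasts, 15.9 and 20.5% in macrophages, 16.3 and 24.3% in T/NK cells, 5.30 and 1.73% in endothelial cells, 11.2 and 11.1% in hormone-sensing cells and 8.85 and 2.83% in myoepithelial cells. The median log2 differences of the list were 1.14, 1.22, 0.49, 0.89, 0.12 and 0.25 in the same order, against -0.03, -0.20, -0.18, -0.37, -0.02 and 0.01 over all genes. Cxcl13 in fibroblasts, and Cxcr3, Cxcr6, Ifng and Il17a in T/NK cells, passed the filter on low counts only through that class. All 36 Ackr1 UMIs of the endothelial sums were in mouse 8. The counts that hold these genes are therefore descriptions. Without mouse 4 the endothelial count was 3 and the myoepithelial count 2 higher and 0 lower. Without mouse 8, where 24 genes were tested, the fibroblast count was 12 higher and 1 lower. The endothelial count there was 6 higher and 0 lower, and the myoepithelial count 2 higher and 1 lower. Without mouse 2 the T/NK count was 10 higher and 2 lower.

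Among the other ligands, Pf4 (platelet factor 4, a CXC chemokine) was highest in macrophages, at 558 ± 148 CPM against 2.13 ± 2.84 CPM in tumor cells (log2 difference 7.82 ± 0.26, adjusted p = 3.43e-44, or 8.64 without mouse 4). Cxcl17 was highest in hormone-sensing cells, at 191 ± 76.6 CPM against 24.7 ± 19.3 CPM in tumor cells (3.15 ± 0.25, adjusted p = 1.40e-19, 7 of 7 mice), the same class that held Cxcl15. Cxcl13, which attracts B cells through CXCR5, was counted in fibroblasts at 0 to 523 CPM with 286 UMIs in 6 of 7 mice and 0 UMIs in tumor cells (adjusted p = 4.26e-27). Cxcl13 passed the filter on low counts only through those fibroblast UMIs, so the adjusted p is a description. Its receptor gene Cxcr5 was at 156 ± 21.3 CPM in B-like cells (n = 4). Cxcl3, a further CXCR2 ligand, was higher in macrophages (71.6 ± 95.7 CPM, adjusted p = 2.63e-11) in 5 of 7 mice and was called higher in fibroblasts (adjusted p = 3.68e-06), where 2 of 7 mice exceeded their tumor cells. The fibroblast call rested on mouse 8, which held 59 of the 61 fibroblast UMIs. Without that mouse the log2 difference was 1.23 ± 1.17 (adjusted p = 0.483), and the fibroblast mean was 1.78 ± 4.35 CPM (n = 6). The macrophage difference of 4.32 (log2) was 3.43 without mouse 2 and 5.03 without mouse 3. The macrophage mean was 40.8 ± 54.8 CPM (n = 6) without mouse 2.

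Of the receptor genes, Cxcr6, the receptor for Cxcl16, was at 191 ± 65.4 CPM in T/NK cells and at most 7.78 CPM in any macrophage sum, and it exceeded tumor cells by 7.88 ± 0.37 (log2, adjusted p = 2.54e-31). Cxcr3, the receptor for Cxcl9 and Cxcl10, was at 36.7 ± 34.0 CPM in T/NK cells and had 1 UMI in tumor cells (log2 difference 6.35, adjusted p = 1.32e-17, or 6.97 without mouse 2). Cxcr6 and Cxcr3 passed the filter on low counts only through T/NK cells, so their adjusted p values are descriptions. Cxcr2, the receptor for Cxcl1, Cxcl2 and Cxcl5, had 3 UMIs in monocyte-like cells and 3 in all 7 compared classes together, and no cluster took the neutrophil name. Ackr3, which takes up Cxcl12, was highest in fibroblasts themselves, at 263 ± 299 CPM against 6.37 ± 5.16 CPM in tumor cells (5.14 ± 0.31, adjusted p = 1.83e-26), and was also higher in myoepithelial cells (3.27 ± 0.58, adjusted p = 6.99e-06) in 4 of 5 mice. Mouse 1 had 893 CPM in fibroblasts, and the mean of the other mice was 158 ± 120.4 CPM (n = 6).

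Among the inducing signals, Il1b was highest in macrophages and monocyte-like cells, 3520 ± 899 and 3164 ± 1193 CPM, against 9.68 ± 9.59 CPM in tumor cells. Its receptor gene Il1r1 was highest in fibroblasts (142 ± 48.1 CPM) and was higher there than in tumor cells by 6.19 ± 0.42 (log2, adjusted p = 1.38e-23, or 7.001 without mouse 4), while macrophages had 1 UMI. Il17a was counted in T/NK cells at 34.4 to 448 CPM (8.35 ± 0.45, adjusted p = 1.32e-27), and Ifng, the inducer of Cxcl9, at 0 to 166 CPM with 0 UMIs in tumor cells. The 166 CPM of Ifng was 3 UMIs in mouse 3. Il17a and Ifng passed the filter on low counts only through T/NK cells, so the adjusted p is a description. Tnf was higher in macrophages (332 ± 454 CPM) and lower in fibroblasts (0.761 ± 2.01 CPM, 1 UMI) than in tumor cells (67.8 ± 71.5 CPM). The macrophage mean rested on mouse 2, at 1330 CPM, and that of the other mice was 165 ± 119 CPM (n = 6). The log2 difference in fibroblasts was -5.37, or -7.09 without mouse 4 and -4.18 without mouse 7. Of the 5 response genes Nfkbia, Tnfaip3, Nfkbiz, Zfp36 and Irf1, 4 were higher and 0 lower than in tumor cells in fibroblasts (all but Zfp36), against 17.9 and 13.6% of all genes. In macrophages 3 were higher (Nfkbia, Tnfaip3 and Nfkbiz) and Irf1 was lower, against 15.9 and 20.5%, and in T/NK cells 1 was higher (Tnfaip3) and 2 lower (Nfkbiz and Zfp36), against 16.3 and 24.3%. The Irf1 call in macrophages (log2 difference -0.71, adjusted p = 0.0389) was lost without mouse 2, 3, 4, 5, 7 or 8 (adjusted p = 0.0610 to 0.171), and the Nfkbiz call in T/NK cells without mouse 2 or 7 (adjusted p = 0.190 and 0.105). Dpp4, whose protease trims and inactivates several CXC chemokines, was higher in fibroblasts (179 ± 97.1 CPM against 19.0 ± 7.24 CPM, adjusted p = 4.33e-20), and Adam10, whose protease releases Cxcl16, was highest in hormone-sensing cells (475 ± 55.7 CPM, adjusted p = 2.26e-21). In macrophages, the class with the most Cxcl16, Adam10 was also higher than in tumor cells (log2 difference 0.95, adjusted p = 4.73e-05). So was Adam17, another protease gene of the list, at 74.1 CPM (2.31, adjusted p = 1.52e-11).

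By likeness of level over the 43 sums (Pearson correlation of log2(CPM + 10), given as a description, since sums share mice and depth), Cxcl12 was nearest to the matrix genes Bgn, Hspg2 and Postn (r = 0.956 to 0.949), and Cxcl14 to Mmp2, Serpinf1 and Lrp1 (r = 0.947 to 0.932). Cxcl16 was nearest to Ccl9, Cd68 and Wfdc17 (r = 0.907 to 0.891), and Cxcl15 to Mum1l1, Krt6a and Ido1 (r = 0.958 to 0.945). Cxcl1 was near to Ctsl and Serpinb6a (r = 0.828 and 0.826), and Cxcl2 to Il1rn, Wfdc17 and Cybb (r = 0.775 to 0.769). Cxcl9 was nearest to Slfn5, Dlc1 and Meg3 (r = 0.853 to 0.835), and Cxcl10 to Plekho2, Nrp1 and Gngt2 (r = 0.825 to 0.812). Cxcl5 and Cxcr4 had no gene above r = 0.622. Between members, Cxcl1 and Cxcl2 had r = 0.424, and Cxcl12 had r = 0.731 with Cxcl1, 0.724 with Cxcl9 and 0.729 with Cxcl14.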

How the data were processed

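Drop-seq of dissociated tumors was analysed for 7 control mice, 1 library each. The study's methods describe mincing and collagenase digestion before the cells were captured. Whether this handling changed the levels of chemokine, inducing and response genes was not tested. The deposited matrices hold the UMI count of each gene in each barcode, as whole numbers without normalization, and the study's methods name mm10 plus PyMT as the reference. The submitters' processing notes name STAR and FastQC without versions and, unlike the study's methods, a human build (hg19), while the genes in the files are mouse genes. The counting program, its strand setting and the annotation are not given in the sources used here. Mitochondrial genes (mt-) were removed from the 2 libraries that listed them.

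Barcodes with 200 to 6000 genes were kept, and doublets were left to the upper limit. Medians of 362 to 467 genes per cell make single-cell levels imprecise, so sums were used. Upper limits for genes without UMIs in a class cover counting error only. Sums and tables were made in Python 3.11.15 with scipy 1.17.1. Seurat 5.3.0 (R 4.3.3) clustered the cells on 570 variable genes, after 17 genes of the CXC lists were left out of them, with 20 principal components, 30 neighbors and a resolution of 0.6. Clusters were named by their best marker list (mean log2 fold over the median cluster, 5 CPM added), provided that the score was at least 1, that 3 markers had a UMI in 10% of its cells and that no other list had more markers among its 10 leading genes, so names can differ from the study's.

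Sums of at least 10 cells were compared by edgeR 4.0.16 (quasi-likelihood test, class plus mouse, 43 sums, 14485 genes with at least 30 UMIs), with adjusted p over all genes and a threshold of 0.05. The SE of a log2 difference was derived as its absolute value divided by the square root of the F statistic. It is therefore imprecise for very small differences. The sums of a mouse are paired by construction. Cxcl13, Cxcl15, Cxcr3, Cxcr6, Ifng and Il17a passed the filter on low counts only through the class where each was highest. Their adjusted p values are therefore descriptions. TMM factors (0.823 to 1.33) were set on the 829 genes with a mean of at least 200 CPM, because counts simulated without bias gave biased factors for shallow sums when all genes set them. The edgeR fit was checked on counts simulated for fibroblasts and for endothelial cells against tumor cells, without differences between mice. The labels' numbers name the mice, and whether the endings CB and WT mark batches is not stated.

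Gene positions are from GENCODE vM21 (GRCm38), and 8 of the 10 genes matched a RefSeq promoter window. The genes named are the members, a wider CXC list of 30 genes, and per member the 3 genes of highest Pearson correlation among those with a mean of at least 20 CPM. Of the last 2 groups, 1 gene each is not reported here. The members, lists and comparisons were chosen with earlier results of these data known. Alternatives were other clusterings, filters, scalings and tests, DESeq2 1.42.0, either library series alone, each mouse left out, TMM on all genes, and the unnamed cluster counted as tumor, the last 2 chosen after seeing the data. The shares of UMIs and the levels and wider list without single mice were also added after seeing the data.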

Additional observations from a re-analysis of the deposited data

Results flagged for a closer look

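Dixon's test for a lone extreme value was applied to each gene and class with 4 to 10 mice, 56 groups in all. For normally distributed values a rate of 1 in 20 would flag about 2.80. It flagged 24, all of them high values, with 6 in mouse 2, 5 each in mice 4 and 8, 4 in mouse 1, 3 in mouse 7, 1 in mouse 3 and 0 in mouse 5. Many rest on 1 to 3 UMIs. A group with UMIs in 1 mouse alone is flagged by construction, as for Cxcl12 in T/NK cells. For such counts the number flagged cannot be read against 2.80.

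Mouse 2 stood apart for Cxcl2 in tumor cells (1268 CPM, others at most 313) and macrophages (8541, others at most 4158), for Cxcl10 in fibroblasts (630.3, others at most 353) and macrophages (1342, others at most 428), and for Cxcr4 in tumor cells (13.1) and T/NK cells (167.5, others at most 45.8). Mouse 8 stood apart for Cxcl2 and Cxcl5 in fibroblasts (3041 CPM, others at most 525, and 199.9 CPM, others at most 63.9), for Cxcl1 and Cxcl2 in T/NK cells (88.8 and 266 CPM, from 26 cells) and for Cxcl5 in macrophages (17.1 CPM). Mouse 7 had the highest Cxcl10 in T/NK cells (398.5 CPM, others at most 119.5), Cxcl9 in tumor cells (5.82 CPM) and Cxcr4 in hormone-sensing cells (6.41 CPM).

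Mouse 4 had Cxcl9 at 23.9 CPM, Cxcl15 at 3.98 CPM and Cxcl16 at 55.8 CPM in T/NK cells, and Cxcl15 at 7.64 CPM in myoepithelial cells and 3.50 CPM in macrophages. Mouse 1 had Cxcr4 at 125 CPM in myoepithelial cells, Cxcl12 at 11.5 CPM and Cxcl14 at 22.9 CPM in T/NK cells, and Cxcl14 at 8.37 CPM in hormone-sensing cells. Mouse 3 had Cxcl9 at 27.9 CPM in hormone-sensing cells. The cause of these values was not tested.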

How the results depend on the processing

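The 10 results of the design, 1 per gene, had 245 alternative values. Of these, 239 kept direction and side of the threshold, 5 were no longer past it and 1 reversed, all 6 for Cxcl5 in fibroblasts or Cxcr4 in T/NK cells. Cxcl5 in fibroblasts against tumor cells (log2 1.89) was 1.72 by DESeq2 (adjusted p = 0.230), 1.39 to 2.40 with 1 mouse left out, and -0.21 and 0.37 on log2(CPM + 1) and log2(CPM + 10) by the exact sign-flip test (p = 0.859 and 0.578). Cxcr4 in T/NK cells was 1.99 and 1.05 on those scales (p = 0.0625 for both by the exact test), and 3.19 to 3.74 with 1 mouse left out. Cxcl15 passed the main filter only through hormone-sensing cells, so its calls are descriptions. The other 8 results, Cxcl15 among them, passed under every alternative that gave a value. Without the replicate block they were between 3.66 (Cxcl1) and 6.66 (Cxcl12), and none of the 10 lost its call. Cxcl2 in fibroblasts (1.32, adjusted p = 0.0649) and Cxcl5 in macrophages (-2.40, adjusted p = 0.166) were not called without that pairing. Cxcl5, Cxcl15 and Cxcr4 had no value under filterByExpr, nor Cxcl15 and Cxcr4 in the WT libraries alone, because they failed those filters. Within the CB and the WT libraries Cxcl9 in macrophages was 5.75 and 3.85, Cxcl1 in fibroblasts 3.31 and 4.01, Cxcl12 in fibroblasts 7.36 and 6.28 and Cxcl14 in fibroblasts 6.12 and 6.96.

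With 9 principal components no endothelial class was named, so its results had no value, and the myoepithelial cluster, which took in those cells, had 5 members called higher and 1 lower than tumor cells, among them Cxcl9 (5.06) and Cxcl10 (4.39), while 720 of the 737 monocyte-like cells joined a macrophage cluster. A further 22 member results past the threshold had 540 alternative values, of which 483 kept their call, 55 lost it and 2 reversed. These were Cxcl2 in fibroblasts without mouse 8 (-0.043, and 1.41 without mouse 2) and Cxcr4 in myoepithelial cells with classes set per cell (-3.24, adjusted p = 0.898). Cxcl2 in fibroblasts lost its call under 15 others. With 3 or 5 mice the sign-flip test cannot go below 0.25 or 0.0625.

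Scaling moved the split of calls over all genes. The share higher was 50.3% in hormone-sensing cells, 75.8% in myoepithelial cells, 56.9% in fibroblasts, 75.3% in endothelial cells and 43.6% in macrophages. With TMM on all genes the first 4 became 38.1, 30.6, 41.9 and 32.8%, with total UMIs fibroblasts became 40.0% and macrophages 29.9%, and with DESeq2 fibroblasts became 67.2%. TMM on all genes also shifted the median log2 difference to -0.61 in myoepithelial and -1.08 in endothelial cells. Counts of calls moved by over 1.5 times as follows: hormone-sensing 3233 to 1826 (filterByExpr) and 732 (WT libraries), myoepithelial 1692 to 2616 (TMM on all genes), 483 higher plus 85 lower (WT), 974 (without mouse 4) and 115 (classes per cell), fibroblast 4558 to 2728 (filterByExpr), 2761 (CB) and 2452 (WT), endothelial 1018 to 1604 (TMM on all genes), 447 (CB), 600 (WT), 647 (without mouse 4) and 651 (classes per cell), macrophage 5274 to 2891 (filterByExpr) and 2845 (WT), and T/NK 5885 to 3174 (filterByExpr), 2688 (WT) and 3329 (at least 500 genes per barcode). The filter, the fewer mice and the fewer cells lower counts by construction, and the cause was not tested for the scalings.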
